A study of Mus musculus with 9 samples.

Results

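This comparison set 3 libraries of mouse bone marrow-derived macrophages that received BMS303141 and lipopolysaccharide against 3 libraries that received lipopolysaccharide alone. The libraries were chosen by their labels, 6 of 9 in all, and 12196 of the 12204 genes listed in the deposited table, those at 0 log2 CPM or above in 3 or more libraries, were tested. Bone marrow cells of C57/Bl6J mice had been differentiated for 6 days in medium with 20% supernatant of L929 cells, which secrete the growth factor that makes macrophages. The LPS group received 10 ng/ml lipopolysaccharide (LPS) for 4 h. The inhibitor group was pretreated for 1 h with 50 µM BMS303141 and then received the same LPS. The other 3 libraries were untreated macrophages, which served here only for the estimate of spread and as a reference level. Since a library with BMS303141 and no LPS is lacking and a vehicle is not named in the labels, every difference below is a difference on top of LPS. Whether replicates were separate mice or cultures is not stated in the labels, and p-values therefore measure the spread of these libraries only, part or all of which may be technical.

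LPS is sensed by Toll-like receptor 4, which signals through one adaptor branch to NF-kB and the genes of inflammatory cytokines, and through another to interferon-beta. Secreted interferon then acts on the same cells through its receptor and transcription factors such as STAT2 and IRF9, which raise the interferon-stimulated genes. BMS303141 inhibits ATP-citrate lyase, the enzyme encoded by Acly that splits citrate exported from mitochondria into cytosolic acetyl-CoA and oxaloacetate. Acetyl-CoA is the building block of fatty acids and cholesterol and the donor for histone acetylation, a mark of active genes, and the study's question was what this enzyme contributes when macrophages sense Toll-like receptor ligands.

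The motif that set the fallen genes most apart in a search of promoters was the interferon-stimulated response element, searched on both strands as GAAA, any 2 bases and GAAA again. The windows were RefSeq promoters of GRCm38.p6 running from 250 bases before to 50 bases after a gene's start, and 8165 of the 12196 tested genes had one. At least 1 match was present in 4.07% of these 8165 genes, in 5.32% of the 94 genes with a window that were higher with the inhibitor, and in 19.3% of the 109 that were lower. It was present in 29 of 54 tested interferon-stimulated genes with a window (53.7%) and in 14 of the 24 of them that were called lower (58.3%), against 7 of the 85 called lower outside that list (8.24%). A match describes these letters and does not show that a factor binds there. The stretches below are shown because they carry that motif, in capitals, in genes that fell; Phf11b, Slfn8 and Trim30d belong to the genes named by rule, and the others were picked after their values were seen. They are written 5′ to 3′ on the strand of the gene, so that TTTC, 2 bases and TTTC is the same motif on the opposite strand. The positions are Phf11b at chr14:59341346-59341405 (minus strand), Slfn8 at chr11:83020824-83020883 (minus), Trim30d at chr7:104507856-104507915 (minus), Ifit3 at chr19:34583348-34583407 (plus), Igtp at chr11:58199497-58199555 (plus), Stat2 at chr10:128270251-128270310 (plus), Gbp2 at chr3:142620579-142620638 (plus) and Gbp7 at chr3:142530258-142530317 (plus).
Phf11b: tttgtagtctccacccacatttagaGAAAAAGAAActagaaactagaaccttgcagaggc
Slfn8: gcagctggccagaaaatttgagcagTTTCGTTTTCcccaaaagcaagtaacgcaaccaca
Trim30d: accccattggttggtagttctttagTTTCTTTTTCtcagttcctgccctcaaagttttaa
Ifit3: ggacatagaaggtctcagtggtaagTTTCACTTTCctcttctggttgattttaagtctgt
Igtp: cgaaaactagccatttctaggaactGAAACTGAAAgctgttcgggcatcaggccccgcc
Stat2: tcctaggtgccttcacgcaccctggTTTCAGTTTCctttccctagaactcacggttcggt
Gbp2: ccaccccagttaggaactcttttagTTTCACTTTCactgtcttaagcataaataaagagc
Gbp7: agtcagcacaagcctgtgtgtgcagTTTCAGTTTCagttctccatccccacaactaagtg

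Of the other motifs searched on both strands, the kB site (GGGA, any base, TTTCC), to which NF-kB binds, was in 0.563% of genes with a window and in 1 gene called lower, Il6, at chr5:30013045-30013104 (plus strand).
Il6: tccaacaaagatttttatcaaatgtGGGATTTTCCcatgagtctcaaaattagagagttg

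The antioxidant response element TGACNNNGC, which can overlap the AP-1 site TGANTCA, was in 17.3% of all genes with a window and in 20.2% of those called higher and 20.2% of those called lower. The AP-1 site was in 6.04%, 11.7% and 11.9%, and the E-box CACGTG in 12.4%, 12.8% and 5.50% of the same sets. Shares of called genes higher and lower thus stood close together for the first 2 of these motifs. The remaining 3 motifs, the amino acid response element TGATGNAA, the sterol response element TCACNCCAC and the heat shock element (GAA, 2 bases, TTC, 2 bases, GAA), were in 2.79%, 1.35% and 0.625% of all genes with a window. The first of them was in 1.06% of the genes called higher (1 gene) and 7.34% of those called lower (8 genes), and the second in 2.13% and 1.83% (2 genes each). The third was in 1 gene called lower and none called higher.

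The values were log2 CPM, counts scaled to library size, that the authors had quantile-normalised, which gives every library the same distribution; a change that moved most transcripts one way could not be seen, and a difference is one of rank within the library turned into log2 units. From the steps between low values, the 3 LPS libraries held about 1.80, 3.00 and 3.20 M (mega) reads on listed genes and the 3 inhibitor libraries about 3.69, 3.64 and 3.47 M. LPS replicate 1 was the shallowest, with about 26.3 reads at its median gene and 348 genes at its lowest value, against 72 to 78 genes in the inhibitor libraries. On the first principal component of these 6 libraries, with 38.8% of the variance, the coordinate of LPS replicate 1 was -64.5, those of the other LPS libraries were 2.49 and -4.20, and the inhibitor libraries spanned 18.6 to 27.9. LPS replicate 1 therefore stood apart from its own group, and some of the results below, not all, are given with and without it. Gm42418 ranked first in every library and took 25.7% of the listed CPM. The macrophage markers Adgre1, Csf1r, Cd68, Lyz2, Itgam and Spi1 were at 7.18 to 11.44 log2 CPM in all 6 libraries.

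With BMS303141 on top of LPS, a small part of the tested genes passed the threshold given below, in both directions. Without adjustment, 883 genes were higher and 937 lower at a p under 0.05 in limma, so a gene that did not pass may still differ. Il12b, interferon-stimulated genes and some NF-kB genes fell, while Hmox1, Zfp36l1, Il10, the lipid droplet genes Plin2 and Hilpda and the macrophage transcription factor genes Irf8 and Cebpa rose. At an adjusted p under 0.05 in limma (Benjamini-Hochberg over the 12196 genes), here a call, 117 genes were higher (0.959% of those tested) and 141 were lower (1.16%), 258 in all (2.12%). Of these, 56 and 63 differed at least 2-fold. In each of the 258 the 3 inhibitor libraries lay entirely above or entirely below the 3 LPS libraries, a separation also seen upward in 10.1% and downward in 11.2% of all tested genes. Called rises had a median of 0.98 on the log2 scale and called falls a median of -0.95. The median level of the called higher genes was 5.15 log2 CPM in untreated macrophages, 4.84 with LPS and 5.82 with inhibitor and LPS. For the called lower genes the medians were 4.49, 6.13 and 5.17. The called lower genes therefore lay, at the median, above untreated level in both LPS groups. When each library was centred on its ribosomal protein genes, 56 genes were higher and 115 lower, so that the higher share of calls went from 45.3% to 32.7%.

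**Figure D1:**
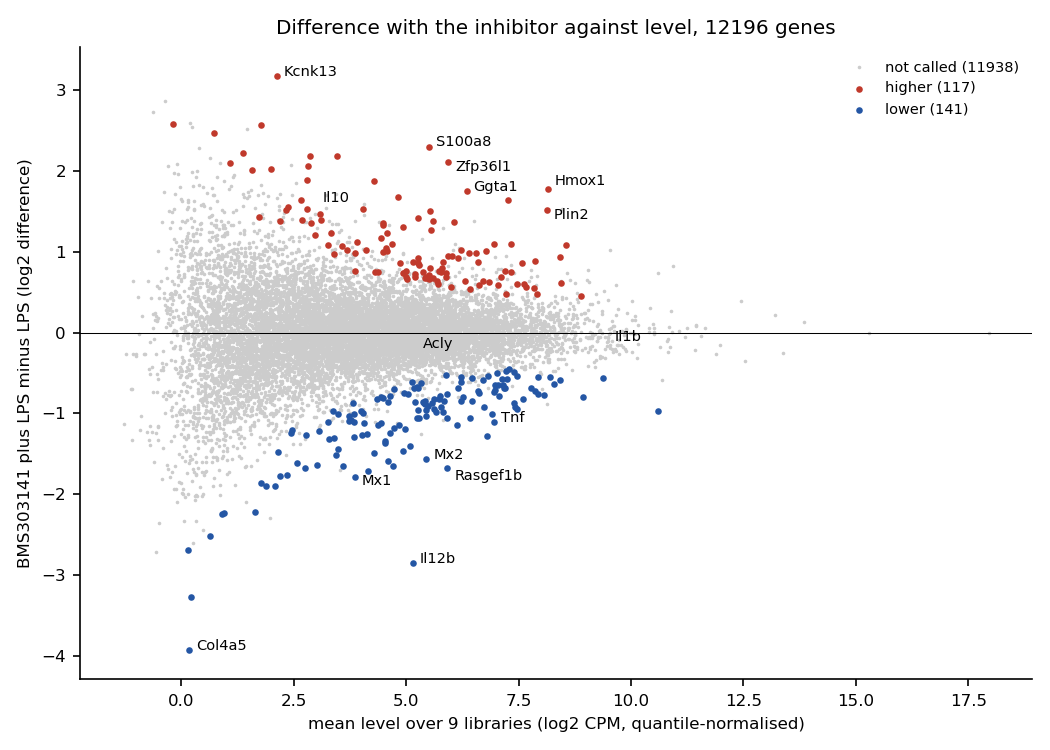
Log2 difference between inhibitor plus LPS and LPS alone (y axis) against the mean level over 9 libraries in log2 CPM (x axis) for 12196 tested genes. Red points are the 117 genes called higher and blue points the 141 called lower; Il12b lies below all other called genes of its level, at -2.84.

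Acly, which encodes the inhibited enzyme, was not called. It was at 5.08, 5.18 and 5.22 log2 CPM in the LPS libraries and at 5.05, 5.24 and 4.91 with the inhibitor (ENSMUSG00000020917, chr11:100476353-100528000, minus strand, GRCm38, GENCODE M21). The groups overlapped, and the difference was -0.09 (95% interval -0.38 to 0.21, adjusted p = 0.802, limma). BMS303141 acts on the protein, so this transcript does not check the labels. None of the 22 tested genes of acetyl-CoA and fatty acid synthesis was called. A higher mean was seen in 15 and a lower one in 7. In 6 all inhibitor libraries lay above all LPS libraries (27.3%, against 10.1% of all tested genes), and below in none. Differences ran from -0.38 to 1.54, with a median of 0.05 (0.20 without LPS replicate 1). Acsl1 and Acsl4, acyl-CoA synthetases, differed by 0.03 and 0.24. None of 29 genes of cholesterol synthesis and uptake was called either, with a median of 0.09. Among 30 genes of the tricarboxylic acid cycle and mitochondrial carriers none was called. Acod1, whose enzyme turns aconitate into itaconate, was at 11.44, 11.73 and 11.73 with LPS and at 11.88, 11.88 and 11.81 with the inhibitor. That difference of 0.23 was not called (adjusted p = 0.814, limma). In the list of 38 histone acetyltransferases, deacetylases and readers 1 gene was called (2.63%, against 2.12% of all tested genes), Hdac9, a class IIa deacetylase. It rose from 2.80, 2.73 and 2.95 to 3.87, 3.96 and 4.34, by 1.23 (SE 0.22, adjusted p = 0.00996, limma), and lost its call without inhibitor replicate 3 (adjusted p = 0.0840). The median of that list was -0.02, and 0.04 without LPS replicate 1.

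Among cytokine genes the fall of Il12b stood out in size. Il12b encodes p40, the subunit shared by interleukins 12 and 23, which steer T helper cells. Its level was 9.79, 9.83 and 9.74 log2 CPM with LPS and 7.32, 7.28 and 6.24 with the inhibitor, against -0.79, -0.79 and -2.33 in untreated cells. The inhibitor libraries held 13.9% of the LPS level, a difference of -2.84 (SE 0.37, adjusted p = 0.00173, limma), and inhibitor replicate 3 was lower than the other two. The call held in each of the 9 fits that left out 1 library, with adjusted p up to 0.0150. Il18, whose product drives interferon-gamma production, went from 5.69, 5.84 and 5.64 to 4.24, 4.64 and 4.25 (-1.35, SE 0.19, adjusted p = 0.00304), and this call too held in all 9 fits. With the inhibitor Il18 lay between its untreated level of 3.26 to 3.85 and its LPS level.

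Il6, a fever and acute phase cytokine, was at 7.10, 7.97 and 7.50 with LPS and 5.91, 6.36 and 5.16 with the inhibitor. Tnf was at 9.08, 9.68 and 9.36 and at 8.21, 8.56 and 8.03. Both were called lower, by 1.71 and 1.11 on the log2 scale (adjusted p = 0.0217 and 0.0178, limma), without overlap. Each of these 2 calls was lost when LPS replicate 2, LPS replicate 3, inhibitor replicate 1 or inhibitor replicate 3 was left out, with adjusted p up to 0.124 for Il6 and 0.111 for Tnf. Il1b, at 11.97, 13.14 and 13.14 with LPS and 12.84, 12.66 and 12.44 with the inhibitor, overlapped between groups. Its difference was -0.10 with all libraries and -0.49 without LPS replicate 1 (adjusted p = 0.941 and 0.701, limma). In the cytokine list, with 22 tested, 4 genes were called lower (18.2%, against 1.16% of all tested genes) and 2 higher (9.09%, against 0.959%). The median was -0.44, while over all tested genes it lay within 0.01 of 0. Without LPS replicate 1 the median was -0.74, with 5 called lower and 2 higher. Over the 9 fits that left out 1 library, higher calls ran from 0 to 2. Lower calls numbered 2 when LPS replicate 2, LPS replicate 3, inhibitor replicate 1 or inhibitor replicate 3 was dropped, and 7 and 9 without untreated replicates 1 and 3.

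Of 18 chemokine genes 1 was called (5.56%, against 2.12% of all tested genes). Ccl22, which attracts T cells through CCR4, fell from 3.35, 4.30 and 3.99 to 1.52, 1.81 and 1.60, by 2.24 on the log2 scale (SE 0.42, adjusted p = 0.0152, limma). The call was lost in 5 of the 9 fits that left out 1 library, those that left out LPS replicate 2 or 3 or 1 of the inhibitor libraries, with adjusted p up to 0.0937. Cxcl10, an interferon-responsive T cell chemokine, was at 7.87, 8.66 and 8.21 and at 7.02, 7.45 and 6.51. Its groups did not overlap, and the difference of -1.25 missed the threshold with all libraries (adjusted p = 0.0537) and passed it without LPS replicate 1 (-1.44, adjusted p = 0.0308, limma). Ccl4 and Ccl9, the chemokine genes with the highest means among those not called, were at 0.37 and -0.02 with all libraries and at -0.02 and -0.03 without LPS replicate 1.

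Among the lists with 10 or more tested members, the interferon-stimulated genes had the lowest median and the most lower calls. Of 70 tested members 31 were called lower (44.3%, against 1.16% of all tested genes) and none higher. In 62 of the 70 all 3 inhibitor libraries lay below all 3 LPS libraries (11.2% of all tested genes did so), and 69 of the 70 had a lower mean. The exception was Ifi27, at 0.37 (adjusted p = 0.686, limma), named after its value was seen. The list's median was -0.78 with all libraries and -0.78 without LPS replicate 1, with 31 members called in both fits. The number called rested on single libraries of both groups: 7 without inhibitor replicate 3, 11 without inhibitor replicate 1 and 19 without LPS replicate 3, while the median stayed between -0.83 and -0.69 in all 9 fits that left out 1 library. Without a mean trend in the variance 9 were called, and with a weight for each library 54.

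The largest interferon-stimulated falls were in Mx1 and Mx2, dynamin-like GTPases that block virus replication. Mx1 went from 5.90, 6.22 and 5.66 to 3.97, 4.40 and 4.05 (-1.78, SE 0.28, adjusted p = 0.00505) and Mx2 from 7.37, 7.50 and 6.99 to 5.68, 5.96 and 5.53 (-1.57, SE 0.18, adjusted p = 0.000549, limma). Trim21, a ubiquitin ligase that binds antibody inside cells, went from 5.49, 5.52 and 5.34 to 3.76, 4.08 and 4.05 (-1.49, SE 0.16, adjusted p = 0.000549). All 3 stayed above their untreated levels. Phf11b fell by 1.25 and Trim30d by 1.06, and Slfn8, a Schlafen family member, by 0.92. Parp14, an ADP-ribosyltransferase, had a smaller but tight difference, from 10.12, 9.88 and 9.88 to 9.26, 9.15 and 9.09 (-0.80, SE 0.10, adjusted p = 0.00169). The calls of these 7 genes held in all 9 fits that left out 1 library. At the other end, the abundant members Slfn2 and Ifitm3 were at -0.24 and -0.11 and were not called. Gvin1, a very large interferon-inducible GTPase outside the list, fell from 6.24, 6.55 and 6.24 to 5.35, 5.37 and 5.34 (-0.99, SE 0.13, adjusted p = 0.00225). The Ifit, Gbp, Oas, Slfn, Trim30 and Gvin families hold near-identical copies, and the 2 motif-bearing stretches of Ifit3 recur letter for letter upstream of Ifit3b, so reads may be split or lost between such genes.

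**Figure D2:**
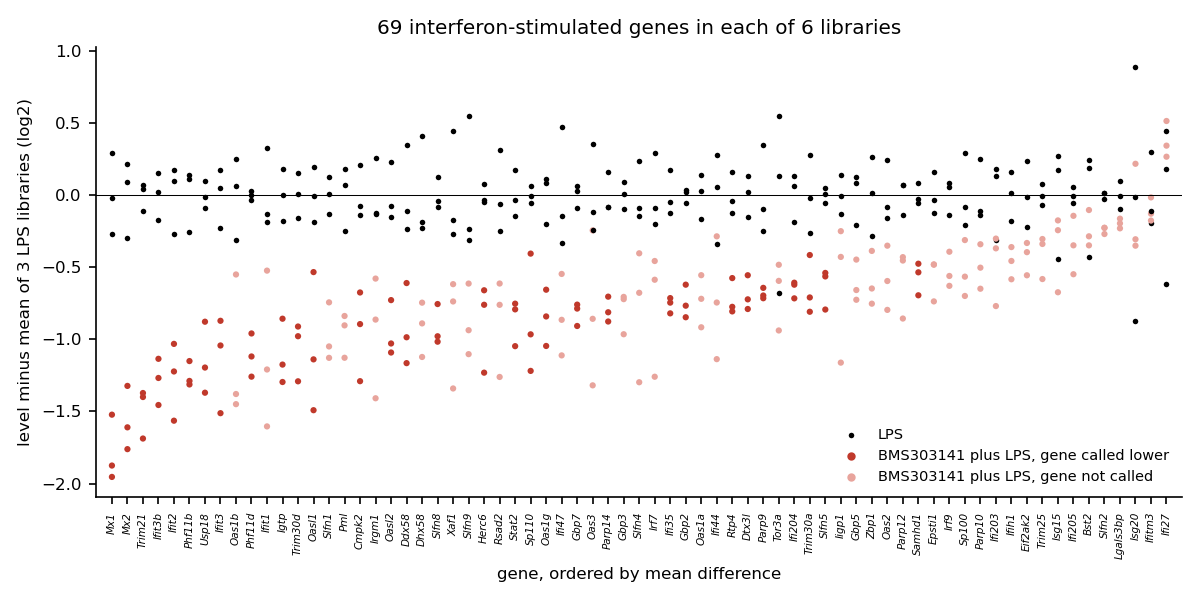
Level of 69 of the 70 interferon-stimulated genes in each of the 6 libraries, minus the mean of the 3 LPS libraries (y axis, log2 units), genes ordered by mean difference (x axis). Black points are LPS libraries and red points inhibitor libraries, dark red for the 31 genes called lower; in 61 genes every red point lies below every black one.

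Few regulators of the interferon response were called. Of 22 tested interferon receptors, kinases and interferon regulatory factors none was called lower and 1 higher (4.55%, against 0.959% of all tested genes). Differences ran from -1.5 to 1.1, with a median of 0.10. All inhibitor libraries lay above all LPS libraries in 6 (27.3%, against 10.1% of all tested genes) and below in 4 (18.2%, against 11.2%). Without LPS replicate 1 the list had 1 lower and 1 higher call. The gene called higher with all libraries was Irf8, a transcription factor of macrophage and dendritic cell development. It was at 5.90, 5.93 and 5.89 with LPS and 6.92, 6.89 and 7.20 with the inhibitor, against 7.91 to 8.03 untreated. Its difference was 1.10 (SE 0.11, adjusted p = 0.000482, limma), and the call held in all 9 fits. Jak1 and Jak2, kinases of cytokine receptors, differed by 0.11 and 0.09 and were not called. Stat2, counted among the interferon-stimulated genes and named after its value was seen, fell by 0.86 (adjusted p = 0.0148), a call lost in 3 of the 9 fits with adjusted p up to 0.0948.

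In the NF-kB list 5 of 35 tested genes were called lower (14.3%, against 1.16% of all tested genes) and none higher. The list's median was -0.13, and its lower calls numbered 2 to 6 in the 9 fits that left out 1 library. Rel, which encodes the NF-kB subunit c-Rel, had tight replicates in both groups, at 8.46, 8.37 and 8.41 with LPS and 7.60, 7.66 and 7.52 with the inhibitor (-0.82, SE 0.11, adjusted p = 0.00173, limma). Icam1, an adhesion molecule for leukocyte integrins, went from 8.38, 8.48 and 8.21 to 7.25, 7.45 and 7.20 (-1.06, SE 0.16, adjusted p = 0.00341). Calls of both genes held in all 9 fits. Cd83, Tnfaip2 and Nfkb1 fell by 0.99, 0.97 and 0.54, calls lost in 5, 1 and 3 of the 9 fits (adjusted p up to 0.119, 0.0532 and 0.108). Nfkbia and Tnip1, which encode inhibitors of the pathway, were at 0.27 and -0.06 and were not called, and Nfkbia was at -0.01 without LPS replicate 1. Of 25 Toll-like receptors, coreceptors and adaptors 2 were called lower (8.0%, against 1.16% of all tested genes). Ticam2, the adaptor that links Toll-like receptor 4 to the interferon branch, went from 4.07, 4.26 and 4.38 to 2.95, 2.69 and 3.11 (-1.32, SE 0.21, adjusted p = 0.00680), a call held in all 9 fits. Tlr8 went from 3.92, 3.92 and 3.27 to 2.35, 2.36 and 2.07 (-1.44), a call lost without inhibitor replicate 3 (adjusted p = 0.0712). Cd14, the LPS coreceptor, was at 7.86, 9.38 and 9.28 with LPS and 9.34 to 9.58 with the inhibitor, so that LPS replicate 1 set most of its difference of 0.64 (adjusted p = 0.347, limma).

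Other large falls were those of Rasgef1b, Arhgap22, Ddhd1, Rcsd1 and Rin3. Rasgef1b, a guanine nucleotide exchange factor for Ras family proteins, went from 6.70, 6.93 and 6.57 to 5.02, 5.43 and 4.73 (-1.68, SE 0.17, adjusted p = 0.000482, limma), below its untreated level of 5.85 to 6.06. Arhgap22, a GTPase-activating protein for Rac, went from 4.76, 5.03 and 4.53 to 3.26, 3.55 and 2.56 (-1.65), against 6.13 to 6.28 untreated. Both genes thus ended below the untreated libraries. Ddhd1, a phospholipase, fell by 1.59, Rcsd1, which binds actin capping protein, by 1.46, and Rin3, which activates Rab5 on endosomes, by 1.40, and of these 3 Ddhd1 and Rin3 stayed above their untreated levels. Ccrl2, a receptor that presents chemerin, fell by 1.37 (adjusted p = 0.0163, limma), a call lost in 3 of the 9 fits with adjusted p up to 0.0794. It was the 1 call among 37 genes of G protein signalling (2.7%, against 2.12% of all tested genes). Tmcc3 and Blnk, an adaptor of immune receptor kinases, fell by 1.24 and 1.14.

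Among genes of MAP kinase phosphatases and RNA decay the largest rise was that of Zfp36l1. Zfp36l1, which binds AU-rich elements and speeds decay of the transcripts that carry them, was at 3.65, 4.14 and 4.17 with LPS and 6.29, 5.97 and 6.04 with the inhibitor. That was a rise of 2.11 (SE 0.17, adjusted p = 6.54e-05, limma), to below the untreated 7.58 to 8.01. It was the stronger of 2 higher calls among 25 genes of MAP kinase phosphatases and RNA decay (8.0%, against 0.959% of all tested genes). The other was Zc3h12d, at 0.77, 0.45 and 1.69 and at 2.68, 2.02 and 2.76, whose call was lost in 7 of 9 fits. The related Zfp36, which encodes tristetraprolin, was at 0.26 and not called.

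Il10, an anti-inflammatory cytokine gene, was at 4.91, 4.71 and 4.90 with LPS and 6.32, 6.40 and 6.38 with the inhibitor. The gap between the groups was wide beside their own spread, but the test pools the spread of the untreated libraries, which ran from 0.02 to 1.82. Its rise of 1.53 (SE 0.33, adjusted p = 0.0294, limma) was called, and the call was lost in 6 of the 9 fits, those without untreated replicate 2, without LPS replicates 2 and 3 and without each of the inhibitor libraries (adjusted p up to 0.128). Of 21 tested genes of the STAT3 and interleukin 10 response, 17 had a higher mean, with a median of 0.38. In 10 all inhibitor libraries lay above all LPS libraries (47.6%, against 10.1% of all tested genes), and 4 were called higher (19.0%, against 0.959%). Besides Il10 these were Il1rn, the interleukin 1 receptor antagonist, Il4ra and Il6ra. Il1rn went from 8.46, 9.05 and 9.05 to 10.14, 9.81 and 9.88 (1.09, adjusted p = 0.0163), a call lost without inhibitor replicate 1 or 3 (adjusted p up to 0.0965). Il4ra, a chain of the interleukin 4 and 13 receptors, went from 8.21, 8.18 and 8.35 to 9.16, 9.08 and 9.17 (0.89, SE 0.10, adjusted p = 0.000506). Il6ra went from 3.35, 3.41 and 3.68 to 4.92, 4.50 and 4.73 (1.23, SE 0.17, adjusted p = 0.00226), and both receptor calls held in all 9 fits. Bcl3 and Junb of the same list were at 0.28 and 0.16 and were not called, and Junb was at -0.31 without LPS replicate 1. Without LPS replicate 1 the list's median was 0.22. Of 10 alternative activation genes Il1rn and Il4ra were called higher (20.0%, against 0.959% of all tested genes). Ccl22 and Egr2 (-1.47) were called lower (20.0%, against 1.16%), and Mrc1, the mannose receptor, was at 0.15 and not called.

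**Figure D3:**
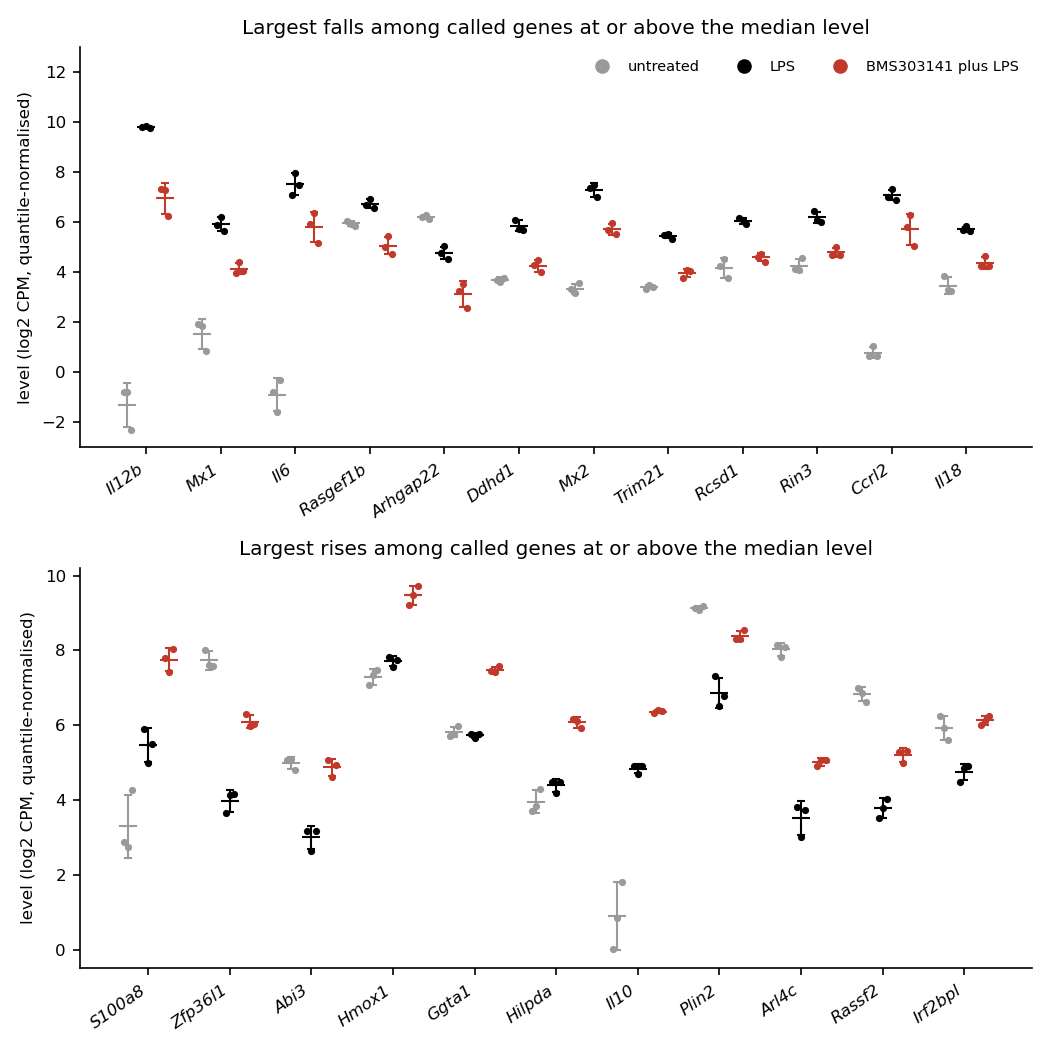
Levels in log2 CPM (y axis) of 12 called genes with the largest falls (top) and 11 with the largest rises (bottom) among those at or above the median level and without overlap, in each of 9 libraries; bars give the mean and SD of 3 libraries. Il12b falls from 9.74 to 9.83 with LPS to 6.24 to 7.32 with the inhibitor, and Zfp36l1 rises from 3.65 to 4.17 to 5.97 to 6.29.

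Hmox1, haem oxygenase 1, was among the strongest rises. The enzyme breaks haem down to biliverdin, iron and carbon monoxide, and its gene is a target of the transcription factor NRF2. Its level was 7.81, 7.56 and 7.75 with LPS and 9.22, 9.49 and 9.71 with the inhibitor, above the untreated 7.07 to 7.49 (chr8:75093621-75100589, plus strand). The rise was 1.77 (SE 0.14, adjusted p = 6.54e-05, limma), and the call held in all 9 fits. The rest of the 37 tested NRF2 genes moved less. A higher mean was seen in 28. All inhibitor libraries lay above all LPS libraries in 13 (35.1%, against 10.1% of all tested genes), and 2 were called higher (5.41%, against 0.959%). The second was Slc48a1, a haem transporter, at 0.57 (adjusted p = 0.0126), a call lost in 3 of the 9 fits with adjusted p up to 0.0879. The list's median was 0.28, and 0.20 with ribosomal centring. Fth1, the ferritin heavy chain, was at 12.14, 12.66 and 12.66 and at 12.66, 13.14 and 12.84 (0.39, and 0.22 without LPS replicate 1, not called). Gclm, Slc7a11, Srxn1 and Txnrd1, widely used NRF2 targets named after their values were seen, were at 0.39, 0.73, 0.36 and -0.16, none called (adjusted p = 0.164, 0.175, 0.277 and 0.662, limma). In the list of 21 genes for iron and haem, which shares Hmox1 and Slc48a1, 19 had a higher mean. The list had 3 higher calls (14.3%, against 0.959% of all tested genes). Its remaining call was Slc11a1, a metal transporter of the phagosome, which went from 4.67, 5.18 and 5.12 to 5.89, 5.87 and 5.99 (0.93) and lost its call without inhibitor replicate 3 (adjusted p = 0.0712). Other stress lists gave few calls: none of 29 integrated stress response genes (Atf4 at 0.29), none of 23 p53 targets, 1 lower of 25 unfolded protein response genes (Pdia4, -0.53) and 1 lower of 21 heat shock genes (Dnajb6, -0.71). The last 2 calls, 4.0% and 4.76% of their lists against 2.12% of all tested genes, were lost in 7 and 2 of the 9 fits.

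The lipid droplet genes Plin2 and Hilpda rose. Plin2, which coats lipid droplets, was at 7.30, 6.52 and 6.77 with LPS and 8.31, 8.30 and 8.54 with the inhibitor (1.52, SE 0.16, adjusted p = 0.000506, limma). Hilpda, a droplet protein that inhibits the main triglyceride lipase, went from 4.49, 4.20 and 4.50 to 6.18, 6.13 and 5.92 (1.68, SE 0.18, adjusted p = 0.000506). Both calls held in all 9 fits; Plin2 ended below its untreated level of 9.07 to 9.19 and Hilpda above its level of 3.71 to 4.29. Fabp4, a fatty acid carrier, rose by 1.39 from a low level of 1.48 to 2.07, a call lost in 5 fits with adjusted p up to 0.123. These were the 3 calls among 23 genes of PPAR signalling and fatty acid oxidation, whose median of 0.03 turned to -0.05 with ribosomal centring. Cd36 and Hadha, for uptake and oxidation of fatty acids, were at 0.00 and -0.30 and were not called, and Cd36 was at 0.23 without LPS replicate 1. Of 14 liver X receptor targets and partners 3 were called higher (21.4%, against 0.959% of all tested genes). Arl4c, a small GTPase, went from 3.82, 3.00 and 3.75 to 4.90, 5.07 and 5.08 (1.50, SE 0.20, adjusted p = 0.00185), a call held in all 9 fits. Rxra and the cholesterol exporter gene Abca1 rose by 1.47 and 0.76, both calls lost in 6 fits, with adjusted p up to 0.147 and 0.186. Apoe, an abundant target, was at 0.00.

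Of 23 hypoxia targets 21 had a higher mean, with a median of 0.54 and of 0.44 without LPS replicate 1. In 15 (65.2%, against 10.1% of all tested genes) all inhibitor libraries lay above all LPS libraries. Plin2 and Ndrg1 were called higher (8.7%, against 0.959% of all tested genes), the latter at 1.16 (adjusted p = 0.0126, limma) and lost in 3 fits. Hif1a itself was at 8.74, 8.41 and 8.54 and at 8.81, 8.91 and 8.98 (0.34, adjusted p = 0.179). Among 28 glycolysis genes 3 were called higher (10.7%, against 0.959% of all tested genes) and none lower, with a median of 0.25. Pfkfb3, which makes the activator of phosphofructokinase, went from 6.99, 7.64 and 7.66 to 8.69, 8.84 and 8.85 (1.36, SE 0.20, adjusted p = 0.00377), a call held in all 9 fits. Ldha and Tpi1 rose by 0.68 and 0.67, calls lost in 4 and 5 fits with adjusted p up to 0.0927 and 0.164. The count for glycolysis was 7 without LPS replicate 1 and 1 with ribosomal centring. Pkm and Aldoa, abundant enzymes of the pathway, were at 0.37 and 0.15 and were not called.

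The resting macrophage genes Cebpa, Fcgr3 and Irf8 rose with the inhibitor. Cebpa, a factor of myeloid differentiation, went from 4.23, 4.97 and 4.72 to 5.63, 5.77 and 5.30 (0.93, adjusted p = 0.0192, limma), a call lost in 3 fits with adjusted p up to 0.0988. Fcgr3, an activating receptor for antibody, went from 7.79, 7.73 and 7.99 to 8.88, 8.54 and 8.87 (0.93, SE 0.13, adjusted p = 0.00297), which overlapped its untreated level of 8.39 to 8.81. These and Irf8 were among the 4 calls, all higher, of 38 resting macrophage genes (10.5%, against 0.959% of all tested genes). The list as a whole was divided, with 18 means above and 20 below those of LPS alone and a median of -0.03. Cx3cr1, the fractalkine receptor, was at 4.12, 3.82 and 3.99 with LPS, 3.29, 3.73 and 3.11 with the inhibitor and 8.58 to 8.68 untreated. Its difference of -0.60 was not called (adjusted p = 0.0908). Lyz2 and Lamp1 were at 0.05 and -0.11.

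Further genes rose from an LPS level below that of untreated cells. Abi3, an adaptor of the actin-regulating WAVE complex, was at 3.18, 2.64 and 3.18 with LPS, 5.06, 4.63 and 4.95 with the inhibitor and 4.80 to 5.11 untreated (1.88, SE 0.20, adjusted p = 0.000506, limma). Rassf2 rose by 1.42 and Irf2bpl by 1.38. Neat1, the long noncoding RNA of nuclear paraspeckles, went from 7.49, 7.47 and 7.68 to 8.69, 8.45 and 8.73 (1.08, SE 0.12, adjusted p = 0.000519), against 9.30 to 9.63 untreated. Ggta1 differed from these: it encodes the enzyme that adds terminal alpha-galactose to cell surface sugars, and it was at 5.77, 5.66 and 5.77 with LPS, 5.72 to 5.97 untreated and 7.44, 7.41 and 7.57 with the inhibitor. Its rise of 1.74 (SE 0.12) had the smallest adjusted p of the genes named here, 1.85e-05 (limma; chr2:35400179-35463231). The LPS and untreated values of Ggta1 overlapped.

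S100a8, a subunit of the neutrophil and macrophage protein calprotectin, rose from 5.90, 4.99 and 5.50 to 7.80, 7.42 and 8.04 (2.29, SE 0.34, adjusted p = 0.00377, limma), a call held in all 9 fits. Its partner S100a9 was at 0.18, 1.09 and -0.11 with LPS and 2.74, -0.06 and -0.06 with the inhibitor (adjusted p = 0.863), close to the lowest values. Of 6 tested neutrophil markers 2 were called higher (33.3%, against 0.959% of all tested genes), S100a8 and the collagenase gene Mmp8. The rise of Mmp8 was 1.63, a call lost without inhibitor replicate 1 or 3 (adjusted p up to 0.0694, limma). The summed level of these 6 was 115 to 195 CPM in the LPS libraries and 317 to 424 CPM with the inhibitor. S100a8 alone made up most of the sum with the inhibitor, so the sum is not a measure apart from S100a8. In bulk libraries more cells of a type and more RNA per cell cannot be told apart, and the part of neutrophils in the rise of S100a8 was not tested. Csf3r, the receptor of granulocyte colony-stimulating factor, was at 2.88 to 3.46 and at 3.00 to 3.68 and was not called. The 1 tested dendritic cell marker, Itgax, which macrophages express too, fell from 4.49, 3.75 and 3.88 to 2.41, 2.42 and 2.25 (-1.68, SE 0.27, adjusted p = 0.00587). The 1 tested mast cell marker, Hdc, the enzyme that makes histamine, fell by 0.70 (adjusted p = 0.0319), a call lost in 5 fits. No lymphocyte (3 tested) or stromal (6 tested) marker was called, and no erythroid marker was in the tested table. Of 27 antimicrobial and prostaglandin genes 23 had a higher mean. Called higher were 3 (11.1%, against 0.959% of all tested genes). They were S100a8, the protease inhibitor gene Slpi (2.09) and the prostaglandin E synthase gene Ptges (0.69). Hdc was the 1 called lower (3.7%, against 1.16%). Slpi and Ptges lost their calls in 6 fits each, with adjusted p up to 0.198 and 0.166. Of 5 aryl hydrocarbon receptor targets 2 were higher, Ahrr, the receptor's repressor, from 2.54, 2.07 and 0.88 to 4.24, 3.67 and 4.12 (2.18, adjusted p = 0.00996), and Serpinb2 (1.38), calls lost in 2 and 6 fits, while Tiparp was at 0.29 and not called.

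Nos2, whose product makes nitric oxide in activated macrophages, was at 3.43, 4.12 and 3.91 with LPS and 4.56, 4.73 and 4.61 with the inhibitor. Its groups did not overlap, and the difference of 0.81 was not called (adjusted p = 0.244, limma). Among 27 AP-1 and EGR factors 2 were called higher (7.41%, against 0.959% of all tested genes), Jun (0.64) among them. Egr2 and Batf2 (-1.21) were called lower (7.41%, against 1.16%), and the list's median was -0.29. The calls of Jun, Egr2 and Batf2 were lost in 5, 4 and 6 fits. Scavenger and C-type lectin receptors gave 2 called rises of 21 (9.52%, against 0.959% of all tested genes). These were Clec4d (0.86) and Scarb1 (0.75), calls lost in 3 and 4 fits. Tap1, a peptide transporter for antigen presentation, was the 1 call of 24 genes of that list, at -0.59, and Ncf1, a subunit of the phagocyte NADPH oxidase, the 1 of 10, at -0.55; the 2 calls were lost in 3 and 5 fits. Mki67 was the 1 call of 32 cell cycle genes, at -0.79, lost in 4 fits. Atp6v0a1, a subunit of the proton pump, was the 1 call of 38 lysosome and autophagy genes, at -0.56, lost in 5 fits. The single calls of Tap1, Ncf1, Mki67 and Atp6v0a1 were 4.17%, 10.0%, 3.12% and 2.63% of their lists, against 2.12% of all tested genes. Of 165 solute carriers 3 were called (1.82%), all higher: Slc11a1, Slc48a1 and the nucleoside transporter gene Slc28a2 (1.55, lost in 5 fits). None was called among 77 mitochondrial and 79 cytosolic ribosomal protein genes, 75 nuclear genes of the respiratory chain, 46 of the proteasome, 35 of cell death and the inflammasome and 25 mitochondrially encoded transcripts. The summed mitochondrial level was 54600, 59000 and 59200 CPM in LPS replicates 1 to 3 and 59100 to 59500 CPM with the inhibitor.

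**Figure D4:**
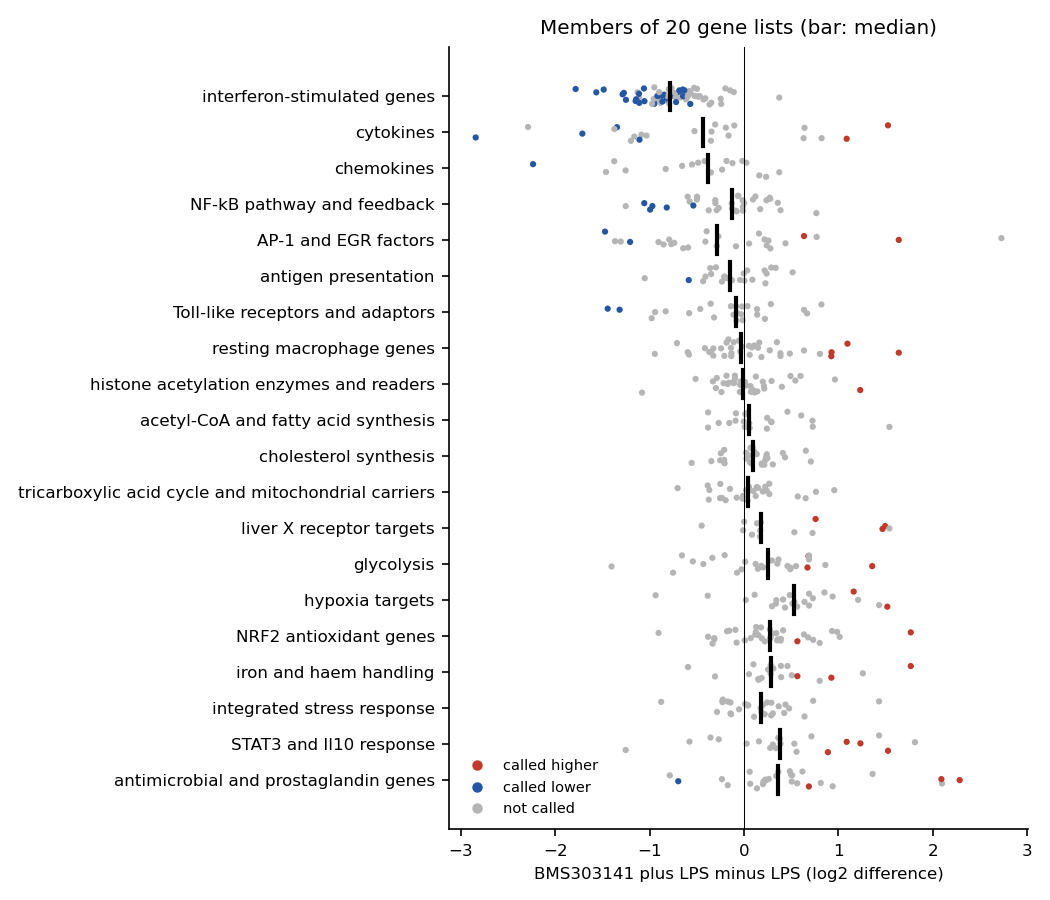
Log2 difference between inhibitor plus LPS and LPS alone (x axis) for every tested member of 20 gene lists (y axis), with the median as a black bar, called higher genes in red and called lower genes in blue. The interferon-stimulated genes have a median of -0.78 with 31 of 70 called lower, and the hypoxia targets a median of 0.54 with 2 of 23 called higher.

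How many genes were called rested on single libraries, and no called gene changed direction in any of them. Without inhibitor replicate 3 the counts were 27 higher and 35 lower, without inhibitor replicate 1 they were 32 and 47, and without inhibitor replicate 2 they were 52 and 91. Without LPS replicate 1, the shallow library, they were 131 and 133, and 204 of the 258 genes were called in the same direction. Called in all 9 fits that left out 1 library were 56 genes, 24 higher and 32 lower. Of the 23 genes with the largest changes drawn by library, 20 were among these 56; Il6, Ccrl2 and Il10 were not. Without a mean trend in the variance 86 of the 258 genes were called, Il12b among them (adjusted p = 0.0380, limma), while the adjusted p was 0.110 for Il6, 0.111 for Tnf, 0.119 for Il10 and 0.0564 for S100a8. With ribosomal centring the adjusted p of Il10 was 0.0767.

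**Figure D5:**
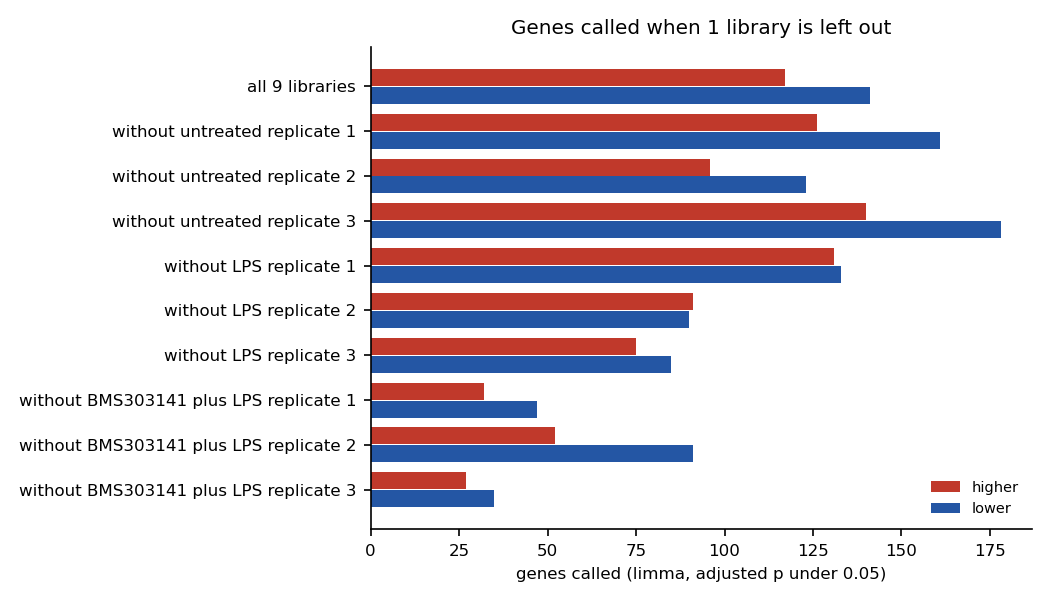
Number of genes called higher (red) and lower (blue) by limma at an adjusted p under 0.05 (x axis) with all 9 libraries and with each library left out in turn (y axis). The lowest counts, 27 and 35, come without inhibitor replicate 3, and the highest, 140 and 178, without untreated replicate 3.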

How the data were processed

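The authors deposited 1 table of 12204 Ensembl gene identifiers and 9 libraries made, per the labels' protocols, from 100 ng of total RNA with the QuantSeq 3′ kit (forward version) and 16 PCR cycles. Reads come from transcript 3′ ends, and the labels mention no molecular identifiers. Per the submitters' processing notes, the build was GRCm38 (mm10) and the tools were featureCounts 1.5.1, STAR 2.5.2b, edgeR, limma and MultiQC, without roles; annotation, strand setting and low-count filter were not given in the sources used here. Deposited by the authors were log2 scores, which the values show to be log2 CPM after quantile normalisation. No counts were used, so no count model was run. Depths were estimated from steps between low values and are approximate.

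A single linear model with a mean for each of the 3 groups was fitted in limma 3.58.1 (R 4.3.3; lmFit, then eBayes with the variance trended on the mean, two-sided tests, Benjamini-Hochberg over 12196 genes; 8 fell below the filter), and the steps were tested on simulated data. SE is the moderated standard error. Symbols matched 12181 identifiers, and coordinates are from GENCODE M21.

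The comparison, gene lists (46, of which 45 had a tested member) and rule for named genes were chosen with earlier results of these data known. The rule took Acly; the 12 largest called rises and 12 largest falls at or above the median level, without overlap and not predicted genes; the next 10 called genes by smallest p; called members of each list, or the 6 with the smallest p where over 8; the 2 most abundant uncalled members of each list; and 11 chosen genes, of which Ifnb1 was not among the tested genes. Overlapping, antisense and near-identical genes are uncertain, since strand use is not given. Alternatives were a replicate block, only the 6 libraries, no filter, a filter of 10 CPM, 3 centrings (one a trimmed mean, 30% at each end), a pseudocount of 1 CPM, no mean trend, library weights, a minimum of 2-fold, and each library left out in turn. Some genes that the rule named are not reported here.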

Additional observations from a re-analysis of the deposited data

How the results depend on the processing

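Against 117 genes called higher and 141 lower, the counts were 43 and 56 without a mean trend (86 of the 258 genes shared), 407 and 407 with library weights, 56 and 63 with a 2-fold minimum, and 56 higher with ribosomal centring. Leaving out 1 library gave 27 to 140 higher and 35 to 178 lower. Replicate numbers showed no clear pairing of the libraries. After group means were removed, correlations of same-numbered LPS and inhibitor libraries were 0.05, 0.17 and -0.01. Those of differently numbered ones ran from -0.16 to 0.11. With 3 libraries a group these values cannot exclude pairing. With the number as a replicate block the counts were 95 and 113, with 192 genes shared. The 6 libraries alone gave 119 and 168. Over all called and named genes and the 20 alternatives, 1345 results lost their call and 25 gained one. Among results called in the main fit or the alternative, 0 reversed. Some genes called in neither did change sign, such as Ccl4, at 0.374 with all libraries and -0.02 without LPS replicate 1. Of the 258, 21 higher and 29 lower genes were called under every alternative, the 2-fold minimum aside. The cause of these shifts was not tested. Genes near the lowest values rest on few reads, most of all in LPS replicate 1, and quantile normalisation hides any shift common to most transcripts. With 3 libraries a group no single gene could reach an exact permutation p below 0.10, so the calls rest on the model's shared estimate of spread. With the filter of 10 CPM no stromal marker was left, so that list has no value there.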

Other observations

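Called genes outside the rule, named here after their values were seen, included enzymes of glycogen and polyamine metabolism. Gys1, the glycogen synthase of most tissues, was at 5.82, 5.60 and 5.90 log2 CPM with LPS and 6.76, 6.57 and 6.81 with the inhibitor (0.94, SE 0.14, adjusted p = 0.00319, limma). Ppp1r3b, which targets a phosphatase to glycogen, rose by 1.07 (adjusted p = 0.0188), a call lost in 3 of the 9 fits that left out 1 library, with adjusted p up to 0.124. Smox, spermine oxidase, rose by 1.30 and Odc1, which makes putrescine, by 1.00, calls lost in 1 and 6 fits. Kcnk13, a potassium channel gene, was at -1.13, 0.85 and -0.87 with LPS, 2.41, 2.76 and 3.20 with the inhibitor and 3.82 to 4.19 untreated; the LPS values lie near the floor, so the size of its rise is imprecise. Cd300lb, an activating receptor of myeloid cells, was at -0.04 to 1.35 with LPS, 2.84 to 3.24 with the inhibitor and 6.46 to 6.59 untreated.

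Among falls outside the rule, Ikzf1, the transcription factor Ikaros, went from 7.65 ± 0.30 to 6.63 ± 0.05 (SD, n = 3; -1.01, SE 0.15, adjusted p = 0.00323 in limma), overlapping the 6.32 to 6.65 of untreated cells. Adamts4, an aggrecan-cleaving protease, went from 6.18, 6.22 and 5.96 to 4.80, 4.76 and 4.25 (-1.51). Genes of leukocyte integrins Itgal and Itga5 fell by 0.79 and 0.86, calls lost in 4 and 3 fits. Col4a5, a collagen gene, was at 1.48 to 1.75 with LPS and at -2.77, -1.50 and -2.77 with the inhibitor, where 2 values are the lowest of their libraries, so no fold is given. Il23a, which encodes the partner of the p40 subunit in interleukin 23, was at 4.02, 4.46 and 4.19 with LPS and 2.25, 2.42 and 1.12 with the inhibitor, without overlap, and was not called (-2.29, SE 0.68, adjusted p = 0.113). Il27 was at 6.15, 5.45 and 5.69 and at 4.39, 4.66 and 4.12 (-1.37, adjusted p = 0.0540), also without overlap and not called.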
